A study of Mus musculus with 9 samples.

Results

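Open chromatin of mature adipocytes was compared between mice that lack Ets1 in adipocytes (EAKO) and their floxed controls (Flox). The members were the peaks of 2 ATAC libraries out of 9 libraries in the series, 88977 peaks in Flox and 82839 in EAKO, together 171816 of the 454996 peaks in all 9 lists. In ATAC a free transposase cuts accessible DNA in nuclei, so a peak marks a stretch of open chromatin. Flox mice carried floxed Ets1 alleles (Ets1 f/f) and no Cre, and EAKO mice carried the same floxed alleles and an Adipoq-Cre transgene, which is active in adipocytes. Exons 2 to 7 of Ets1 lie between the loxP sites, so both groups carry these sites and the Cre transgene is found in EAKO alone. Both groups were males of a C57BL/6J background, 8 to 10 weeks old, and the cells were the floating fraction of collagenase-digested iWAT, the inguinal white fat depot, which lies subcutaneously. How many animals gave each library is not given in the sources used here. Each group had 1 library, so no difference could be tested and the spread between animals is unknown.

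Ets1 is the founding member of the ETS family of transcription factors, which bind DNA around a GGAA core and are known for activity at promoters. Open chromatin in fat is found at promoters and at distal elements, many of which hold sites for AP-1. Distal elements also hold sites for C/EBP, nuclear factor I, EBF and PPARγ, factors that form and maintain adipocytes. Acetylation of histone H3 at lysine 27 (H3K27ac) marks active promoters and enhancers. The series also holds H3K27ac peaks of Flox and EAKO adipocytes, and Ets1 peaks of adipocytes from mice at room temperature (RT), from mice after cold stress (CS) and from beige adipocytes cultured from the pad of mice 3 to 4 weeks old. These lists were laid over the ATAC peaks.

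A peak was called shared when it overlapped a peak of the other ATAC list by at least 1 bp, and otherwise alone. Strength is given as the percentile of a peak's −log10 q within its own list, where 100 is the strongest, because −log10 q depends on depth and cannot be set side by side between libraries. Percentiles in turn depend on how many weak peaks a list holds, and the Flox list is the longer. Intervals given with shares are 95% Wilson intervals and hold the counting error alone. A promoter peak overlapped the 1 kb on either side of a transcription start site (TSS) of 1 of 21938 protein-coding genes, and any other peak was distal. A distal peak was given to the gene with the nearest TSS.

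The sequences that follow are 200 bp windows at the summits of peaks found in a single library, from the plus strand of mm10. The first group holds 4 Flox promoter peaks that met no EAKO peak, although Fgfrl1 has another promoter peak in EAKO. The windows of Fgfrl1 and Cttnbp2nl hold the ETS letters CCGGAAGT and lie in an Ets1 peak. Those of Irs2 and Cox4i1 belong to genes of insulin signalling and respiration. Capitals mark matches on either strand to the letters searched, namely ETS CCGGAAGT, AP-1 TGANTCA, C/EBP TTNNGCAA and PU.1 GAGGAAGT. Over all Flox promoter windows 4.03% held the ETS letters, and over all distal Flox windows 32.5% held AP-1, 11.8% C/EBP and 1.68% PU.1 letters.
Fgfrl1, Flox, chr5:108694021-108694220: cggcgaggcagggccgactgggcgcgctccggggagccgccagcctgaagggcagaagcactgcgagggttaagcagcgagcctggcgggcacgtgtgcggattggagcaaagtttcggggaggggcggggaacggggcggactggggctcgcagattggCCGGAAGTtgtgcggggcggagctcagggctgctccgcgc
Cttnbp2nl, Flox, chr3:105052969-105053168: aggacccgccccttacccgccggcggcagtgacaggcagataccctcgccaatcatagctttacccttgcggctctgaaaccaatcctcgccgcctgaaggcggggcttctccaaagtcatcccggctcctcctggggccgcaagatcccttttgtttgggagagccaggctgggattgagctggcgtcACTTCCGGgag
Irs2, Flox, chr8:11008891-11009090: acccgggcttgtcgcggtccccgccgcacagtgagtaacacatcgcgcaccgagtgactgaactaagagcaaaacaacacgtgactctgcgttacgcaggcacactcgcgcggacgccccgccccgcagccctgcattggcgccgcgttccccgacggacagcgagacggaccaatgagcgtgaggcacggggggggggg
Cox4i1, Flox, chr8:120668163-120668362: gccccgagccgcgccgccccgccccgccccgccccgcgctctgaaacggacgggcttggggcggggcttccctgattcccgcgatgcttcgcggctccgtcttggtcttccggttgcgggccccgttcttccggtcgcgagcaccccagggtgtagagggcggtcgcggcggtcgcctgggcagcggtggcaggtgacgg
GC content of these 4 windows was 72.0%, 62.5%, 67.5% and 76.0%.

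The second group holds distal peaks. The 2 strongest acetylated distal peaks in Flox alone that can be printed lie upstream of Hic2 and Ezh2, the 3 strongest in EAKO alone lie near Thnsl2, Jdp2 and Arhgap28, and the last window is the stronger of the 2 peaks in the floxed part of Ets1 that EAKO lacked. A further Flox peak upstream of Tcp10c, at the 83.7 percentile, borders unread bases of the assembly and is not printed.
Hic2, Flox, chr16:17222212-17222411: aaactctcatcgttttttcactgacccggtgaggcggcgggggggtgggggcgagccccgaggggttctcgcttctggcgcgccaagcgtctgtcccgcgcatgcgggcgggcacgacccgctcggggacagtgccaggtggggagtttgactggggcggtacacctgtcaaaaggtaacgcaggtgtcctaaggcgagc
Ezh2, Flox, chr6:47659712-47659911: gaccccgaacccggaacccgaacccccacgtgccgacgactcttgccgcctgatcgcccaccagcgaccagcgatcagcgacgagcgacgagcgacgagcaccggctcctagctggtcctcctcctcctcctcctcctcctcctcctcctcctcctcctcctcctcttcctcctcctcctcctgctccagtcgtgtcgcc
Thnsl2, EAKO, chr6:71170770-71170969: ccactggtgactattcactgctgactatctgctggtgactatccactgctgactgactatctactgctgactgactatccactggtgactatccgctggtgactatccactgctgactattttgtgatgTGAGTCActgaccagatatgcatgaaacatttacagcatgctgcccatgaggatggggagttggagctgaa
Jdp2, EAKO, chr12:85594471-85594670: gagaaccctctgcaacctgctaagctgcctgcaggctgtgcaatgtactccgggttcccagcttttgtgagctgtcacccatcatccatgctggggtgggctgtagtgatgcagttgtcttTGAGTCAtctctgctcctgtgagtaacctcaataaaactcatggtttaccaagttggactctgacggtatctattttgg
Arhgap28, EAKO, chr17:67861921-67862120: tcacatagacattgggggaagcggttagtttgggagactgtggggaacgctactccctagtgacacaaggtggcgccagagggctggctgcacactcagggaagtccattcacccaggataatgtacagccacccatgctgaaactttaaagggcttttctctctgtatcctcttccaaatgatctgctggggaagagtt
Ets1, Flox, chr9:32743745-32743944: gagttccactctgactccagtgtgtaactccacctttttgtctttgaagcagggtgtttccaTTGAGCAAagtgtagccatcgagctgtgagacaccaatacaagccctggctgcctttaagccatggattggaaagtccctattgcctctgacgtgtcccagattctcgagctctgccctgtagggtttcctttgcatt
The Flox windows had a GC content of 66.5% at Hic2 and 68.0% at Ezh2. The EAKO windows were at 48.0%, 50.0% and 51.5%, and those near Thnsl2 and Jdp2 each hold 1 AP-1 match. The Ets1 window holds 1 C/EBP match.

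The targeted gene was looked at first, as a check of the labels. Peaks over exons 2 to 7 of Ets1 (chr9:32728675-32752917, 24.2 kb, in a transcript of 8 exons) numbered 4 in Flox and 2 in EAKO. In Flox they stood at percentiles 70.4, 0.598, 52.5 and 65.0, from the 5′ to the 3′ end, and in EAKO the first and the last of them were present, at 48.4 and 31.2. The shared peaks in the floxed part were thus lower in EAKO by 22.0 and 33.8 points. The other 12 Flox peaks of the gene were all shared, with EAKO minus Flox differences of -22.4 to 5.87 points and a median of -8.73, and the Ets1 promoter stood at 94.1 in Flox and 94.4 in EAKO. H3K27ac peaks over exons 2 to 7 numbered 5 in Flox, with a median percentile of 79.9 in their list, and 3 in EAKO, with a median of 46.5. Open chromatin over the floxed exons was therefore weaker in the library labelled EAKO but not absent. Cells that do not express Adipoq keep these exons, and their part in the remaining peaks was not tested.

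**Figure D1:**
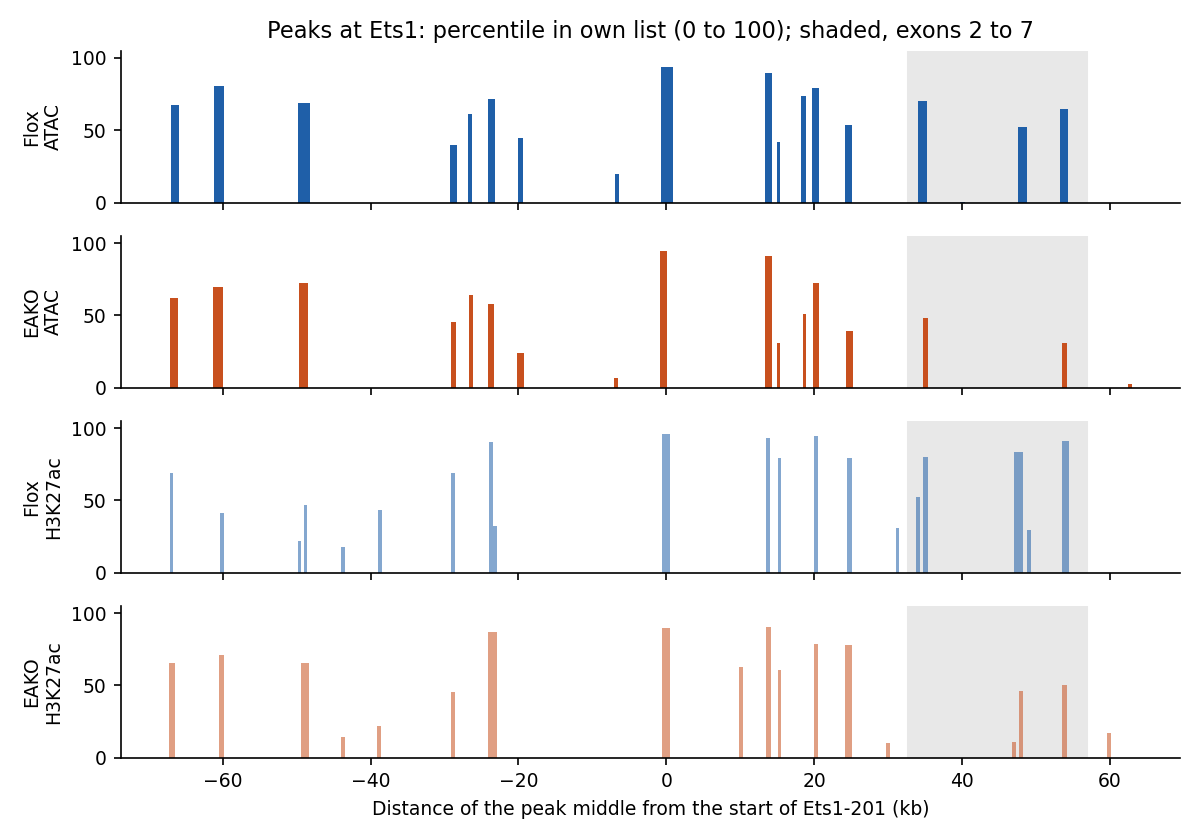
Peaks at Ets1 in the ATAC and H3K27ac lists of Flox and EAKO. The horizontal axis gives the distance of the peak middle from the TSS of Ets1 in kb, the height of a line gives the peak's percentile in its own list from 0 to 100, and shading marks exons 2 to 7. Within the shading Flox ATAC has 4 peaks, 1 of them too low to see (percentile 0.598), and EAKO ATAC has 2, at 48.4 and 31.2.

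Adipoq encodes the fat hormone adiponectin, and the Cre transgene was built on Adipoq sequence. Within 200 kb of its TSS lay 26 peaks in each list, of which 22 were shared and 4 were alone on either side. Shared peaks there differed by a median of -0.482 points, with 10 higher and 12 lower in EAKO. The strongest, 18.5 kb upstream, stood at 97.5 in Flox and 99 in EAKO. A peak 13.3 kb downstream of the TSS went from 76.9 to 87.0, and a peak in the gene, 5.12 kb from the TSS, from 34.9 to 50.3. Other near peaks were lower in EAKO. A peak 20.6 kb downstream went from 67.5 to 53.3, and a peak 1.94 kb upstream from 23.6 to 4.94. Neither list had a peak at the Adipoq promoter itself.

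The adipocyte label was set beside 14 adipocyte markers. Over all genes 65.2% of promoters were open in both libraries, and the count of open adipocyte promoters is near that share. It therefore does not by itself bear out the label. Flox promoter peaks of these markers had a median percentile of 64.6, beside 87.9 over all genes. Promoters of 9 were open in both libraries, among them Lipe, the hormone-sensitive lipase (96.8 in Flox, 94.2 in EAKO), Cebpa (94.0 and 92.4), Pnpla2, the triglyceride lipase (91.8 and 85.9), Slc2a4, the insulin-regulated glucose transporter (88.9 and 93.0), and Fabp4, a fatty acid carrier (25 and 19.4). Promoters of the other 5, namely Adipoq, Cd36, Cfd, Cidec and Lep, had no peak in either library, although 5 distal peaks were given to Adipoq and 9 to Lep in each list. Gene by gene, 6 of the 9 open marker promoters were lower and 3 higher in EAKO, with a median difference of -1.62 points beside -1.20 over all genes. Markers of adipose stem and progenitor cells (ASPC) were open in both libraries for 18 of 23 genes, with a median difference of -4.32 points (12 lower and 6 higher in EAKO). Endothelial markers were so for 13 of 20 genes (-10.8 points, 10 lower), mural markers for 9 of 10 (-2.76, 7 lower), lymphocyte markers for 9 of 25 (-4.15, 5 lower), and macrophage markers for 5 of 21 (-0.0308, 3 lower). Of the macrophage promoters 14 had no peak in either library, Adgre1, Cd68, Itgam, Ptprc and Mrc1 among them, while Mertk (91.9 and 91.9), Cd14 (86.4 and 89.1), Csf1r (80.6 and 69.7), C1qc (55 and 64.2) and Lyz2 (28.3 and 4.94) were open in both. Markers of mesothelium, Schwann cells, skeletal muscle and epithelium were open in both for 6 of 10, 6 of 10, 5 of 10 and 3 of 10 genes. In bulk ATAC, fewer cells of a type and less open chromatin per cell cannot be told apart, and the part of other cells in the differences given here was not tested.

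Most open chromatin was common to both genotypes. The Flox list covered 73.4 Mb with a median width of 736 bp, and the EAKO list 66.9 Mb with 724 bp. Of the Flox peaks 14729 (16.6%, interval 16.3 to 16.8) were alone, and of the EAKO peaks 7436 (8.98%, 8.78 to 9.17). Among promoter peaks, 1775 of 19018 in Flox were alone (9.33%, 8.93 to 9.75) and 634 of 18796 in EAKO (3.37%, 3.12 to 3.64). Distal peaks were alone more often on both sides, with 12954 of 69959 in Flox (18.5%, 18.2 to 18.8) and 6802 of 64043 in EAKO (10.6%, 10.4 to 10.9). By place, intronic and intergenic peaks had 19.3% and 18.2% alone in Flox and 11.4% and 9.92% in EAKO.

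Peaks alone were weak and narrow in both libraries. Their median percentile was 13.2 in Flox and 10.7 in EAKO, beside 58.1 and 54.4 for shared peaks, and their median width was 392 and 388 bp, beside 824 and 769 bp. With each list cut into 4 equal bins by strength, 49.9% of Flox peaks were alone in the weakest bin, then 14.6%, 1.60% and, in the strongest, 0.0989%, or 22 of 22245 peaks. In EAKO the same bins held 29.8%, 5.55%, 0.565% and 0.00966%, or 2 of 20710 peaks in the strongest. Near the threshold of the peak caller, 212 of 267 Flox peaks with a −log10 q under 2 were alone (79.4%) and 265 of 410 EAKO peaks (64.6%). Few lone peaks had a near neighbour in the other list, since 5.06% in Flox and 5.77% in EAKO had a peak of the other list within 500 bp, while 46.4% and 50.6% had one within 5000 bp.

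**Figure D2:**
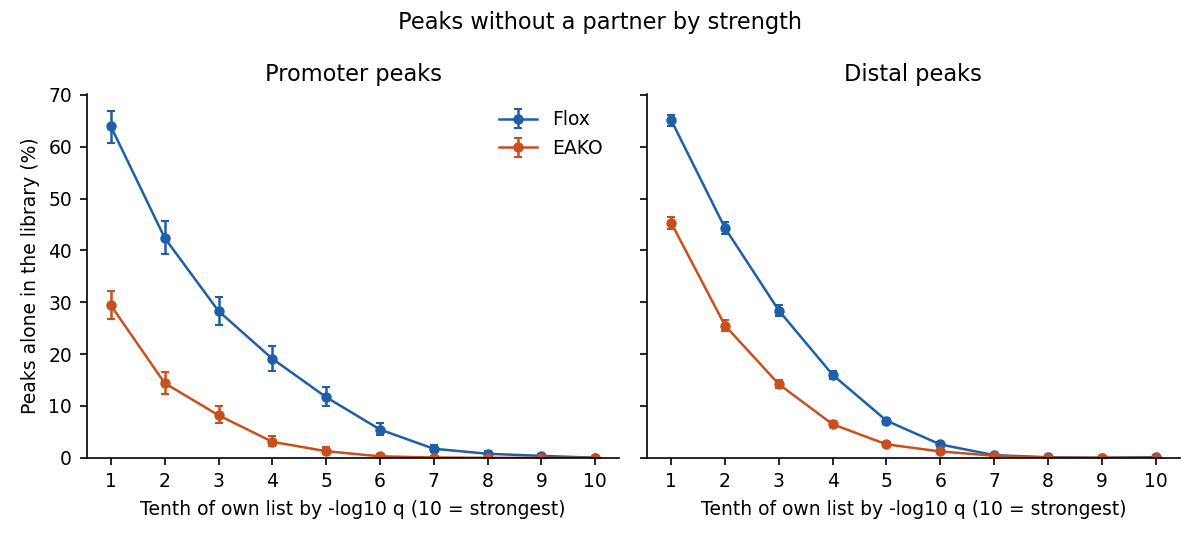
Share of peaks alone in their library (%, vertical axis) by equal-sized bin of the own list by −log10 q (horizontal axis, bin 10 the strongest), for promoter and distal peaks of Flox and EAKO, with Wilson 95% intervals. In the weakest bin 63.9% of Flox and 29.4% of EAKO promoter peaks were alone, and 65.1% and 45.3% of distal peaks. The distal curves come together in the upper bins, while Flox promoter peaks are at 0.787% in bin 8, where EAKO has 0 of 2024.

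The larger number of Flox peaks gives EAKO peaks more partners, and by the study's own account the Flox library also had more reads, so the lists were cut to their 82839 best peaks. Then 10498 Flox peaks (12.7%, 12.4 to 12.9) and 9246 EAKO peaks (11.2%, 10.9 to 11.4) were alone. Distal peaks then had 9135 alone in Flox (14.2%, 13.9 to 14.4) and 8413 in EAKO (13.1%, 12.9 to 13.4), and those within 100 kb of a gene 7162 (13.4%) and 7202 (13.4%). Promoter peaks were also more often alone in Flox, with 1363 of 18390 (7.41%, 7.04 to 7.80) beside 833 of 18796 in EAKO (4.43%, 4.15 to 4.74). The promoter excess lay mostly in GC-rich promoters. Summit windows with a GC content above 57.0%, the top of 5 equal bins of Flox windows, were alone in 823 of 11885 Flox promoter peaks (6.92%, 6.48 to 7.40) and in 205 of 10629 EAKO ones (1.93%, 1.68 to 2.21). At other promoters the shares were 8.30% (7.66 to 9.0) and 7.69% (7.13 to 8.29). Distal peaks stood at 10.9% and 11.2% alone above 57.0% and 14.5% and 13.3% below. GC content also bears on amplification and sequencing, and its part in the promoter excess was not tested.

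**Figure D3:**
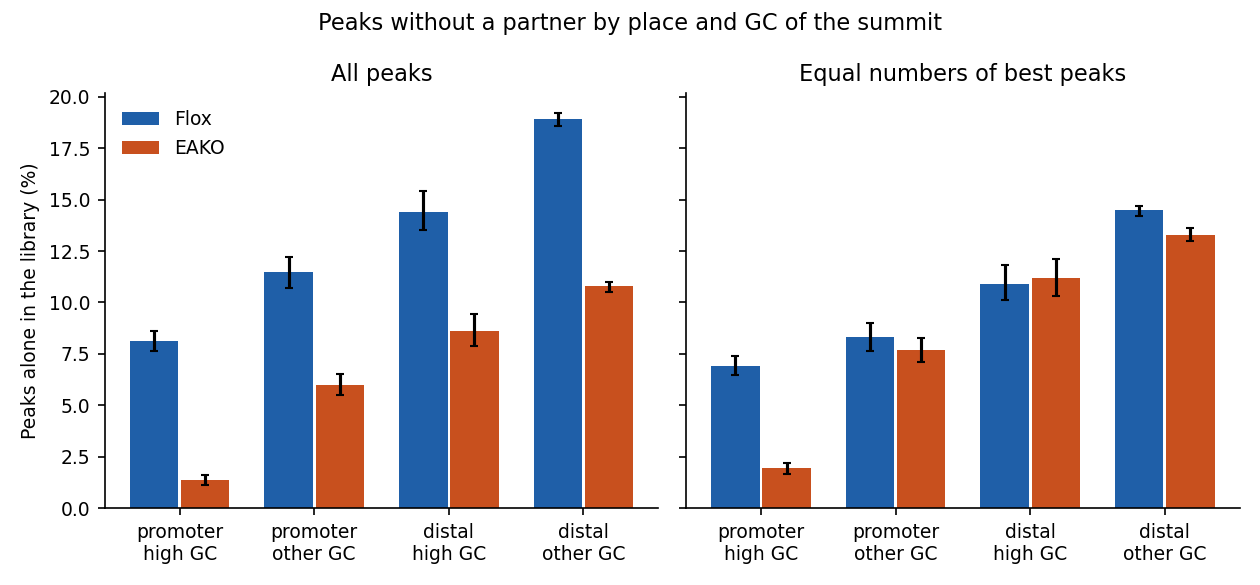
Share of peaks alone in their library (%, bars from 0, Wilson 95% intervals) for promoter and distal peaks with summit GC above 57.0% (high GC) or not, in Flox and EAKO, with all peaks on the left and the 82839 best peaks of each list on the right. With equal numbers the GC-rich promoters stand at 6.92% in Flox and 1.93% in EAKO, while the intervals of the other promoters (8.30% and 7.69%) and of GC-rich distal peaks (10.9% and 11.2%) overlap. Those of the other distal peaks do not, at 14.5% (14.2 to 14.7) in Flox and 13.3% (13.0 to 13.6) in EAKO.

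Counted by gene, the promoters of 14301 genes (65.2%) were open in both libraries and those of 6908 (31.5%) in neither. In Flox alone were 557 genes, 2.54% of all genes, and in EAKO alone 172, or 0.784%. The peak itself met no peak of the other list in 515 and 148 of them, the rest meeting one outside the promoter window, and this count was added after seeing the data. With equal numbers of best peaks 458 genes were in Flox alone and 236 in EAKO alone. Among the 515 and 148 genes, 47 Flox peaks and 1 EAKO peak lay above the 50 percentile, and the median GC of the summit was 63.5% and 52.8%. H3K27ac peaks went with them unequally. Of the 557 promoter peaks in Flox alone, 39.3% overlapped a Flox H3K27ac peak and 23.5% an EAKO one, while the 172 in EAKO alone overlapped them in 22.7% and 20.3%, beside 90.5% and 86.4% for Flox peaks of promoters open in both.

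Among the strongest promoter peaks in Flox alone were those of Naif1, a nuclear apoptosis-inducing factor (99.5), Cpeb4, an RNA-binding regulator of translation (98.9), Jrkl (96.6), Hrc, a calcium-binding protein of the sarcoplasmic reticulum (95.5), Ier5l (92.0), Sh3pxd2b, an adaptor of podosomes (89.3), and Dda1, a factor of a cullin ubiquitin ligase (89.0). Of these, all but Ier5l and Dda1 met an EAKO peak that lay outside the promoter window, so at the other 5 genes the same open site was called in both libraries. In EAKO alone the strongest were Lmntd2 (90.0), Gm30191 (88.2), Gm15517 (86.5), Zfp618 (81.7), Gm10799 (79.3), Gpr132, a receptor for lipid ligands (65.6), Th, the tyrosine hydroxylase of catecholamine synthesis (60.7), and Slc12a3, a sodium-chloride cotransporter (59.6). All 8 of these peaks met a Flox peak outside the window.

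Among genes without a promoter peak in EAKO whose Flox peak met no EAKO peak at all, the strongest after Ier5l and Dda1 were Cttnbp2nl (83.7), Irs2 (82.0), Gm10190 (74.9), Rars, an arginyl-tRNA synthetase (73.2), Josd1, a deubiquitinase (72.3), and Cox4i1 (71.4). Irs2 is an adaptor of the insulin receptor. Its Flox peak (chr8:11008785-11009190) had a −log10 q of 60.4 and lay in a Flox H3K27ac peak, a CS Ets1 peak and a beige Ets1 peak, and in no EAKO H3K27ac peak. Distal peaks of Irs2 were nearly all in both libraries: all 18 in Flox were shared, and 1 of 19 in EAKO was alone. Cox4i1 encodes a core-associated subunit of cytochrome c oxidase and shares its promoter with Emc8, a subunit of a membrane protein insertion complex. Its Flox peak (chr8:120667657-120668774) also lay in a Flox H3K27ac peak and in CS and beige Ets1 peaks, and in no EAKO H3K27ac peak. Of the 8 strongest of this kind 4 lay in a Flox and not in an EAKO H3K27ac peak, namely Ier5l, Irs2, Rars and Cox4i1.

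The corresponding EAKO peaks were weaker within their list and rarely acetylated. They belonged to Afp, alpha-fetoprotein (50.3), Itgb6, an integrin subunit (49.5), Vwa3a (48.4), Isg15, an interferon-induced ubiquitin-like protein (47.3), Bex6 (46.4), Oprm1, the mu opioid receptor (44.3), 4930503B20Rik (42.9) and Gm572 (40.7). Vwa3a alone lay in an H3K27ac peak, of both Flox and EAKO, and none of the 8 lay in a CS or beige Ets1 peak. Summit GC was 44.5% at Bex6 to 59.0% at Oprm1, where the 8 Flox peaks ran from 60.0% at Rars to 76.0% at Cox4i1.

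The order of strength of shared peaks was close between the libraries. Spearman's rho across the 74248 shared Flox peaks and their largest-overlap partners was 0.910, with 0.923 at promoters and 0.896 at distal peaks, a description across peaks that share 2 libraries. The median EAKO minus Flox difference was -1.38 points (-1.64 at promoters, -1.27 at distal peaks), and 3201 peaks (4.31%) were lower and 993 (1.34%) higher in EAKO by 25 points or more. The promoter peaks that were lower by this much numbered 1121 and had a median summit GC of 68.5%, while the 119 that were higher had 53.0%. By bin of GC the median promoter difference was -2.64 points in the top bin and between -0.766 and -0.106 in the other 4. The longer Flox list holds more weak lone peaks, above which shared peaks rank. Shared peaks had a median percentile of 58.1 in Flox and 54.4 in EAKO. List length alone can thus give lower EAKO percentiles. Its part in the differences here and by gene was not tested, since they were not retaken with equal numbers of peaks.

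By gene, 647 of 14301 promoters open in both (4.52%) were lower by 25 points or more in EAKO and 39 (0.273%) higher. Where the best promoter peaks of both lists overlap, a restriction added after seeing the data, the counts were 567 (4.14%) and 27 (0.197%) of 13695 genes. The largest differences downward belonged to Tpbgl (72.9 in Flox, 0.421 in EAKO), Emc8 (71.4 and 0.507) and Gm10642 (95.4 and 25.2), each through 2 different peaks of the promoter. With overlapping peaks they belonged to Dctn2, a dynactin subunit (90.0 and 21.1), Fam133b (86.4 and 19.4), Plxnb1, a semaphorin receptor (69.6 and 5.91), Fam20c, a Golgi kinase of secreted proteins (78.0 and 14.9), and Eif1b, a translation factor (79.1 and 16.1). All 5 had a Flox summit GC of 64.0% to 70.5%. Upward, different peaks gave the difference at Pycard, an inflammasome adaptor (0.157 and 65.5), 4930539E08Rik (27.6 and 82.8), Lrp2, an endocytic receptor (25.3 and 72.8), and Tm4sf5 (14.5 and 57.2). With overlapping peaks Rpp25, a subunit of RNase P and MRP (43.2 and 94.4, by peaks that overlap by 4 bp), Zfp503, a zinc finger protein (56.3 and 95), Asmt, an enzyme of melatonin synthesis (43.1 and 79.9), Cd244a, a receptor of natural killer cells (26.0 and 60.4), and Ccdc160 (23.6 and 57.4) led. At Rpp25 and Zfp503 the EAKO peak lay in a beige Ets1 peak and the Flox peak did not.

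Distal peaks were assigned to 21938 genes, with 57913 Flox and 53658 EAKO peaks within 100 kb of a TSS. Of these 10321 (17.8%) and 5838 (10.9%) were alone. At least 1 distal Flox peak without a partner was found near 6109 genes (27.8%) and at least 1 such EAKO peak near 4299 (19.6%), and 209 and 40 genes had 5 or more. Lpp, a LIM protein of focal adhesions, had 55 distal Flox peaks with 15 alone and 43 EAKO peaks with 2 alone. Foxp1, a forkhead repressor, had 16 of 54 and 6 of 45 alone. Sipa1l1, a Rap GTPase activator, had 11 of 36 and 1 of 26, Col5a2, a fibrillar collagen chain, 9 of 29 and 1 of 21, and Dnm3, a dynamin, 8 of 40 and 0 of 32. Lone peaks of Sipa1l1 were all in the weakest of the 4 bins, at percentiles 0.220 to 24.9, and 6 of the 11 lay in an H3K27ac peak. At these 5 genes the promoter stood between 64.6 and 96.6 in Flox and between 70.7 and 98.0 in EAKO.

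EAKO peaks gathered less at single genes. Rbfox3, a neuronal splicing factor, led with 9 of 17 distal EAKO peaks alone and 3 of 11 Flox peaks. Fam227b and Smim15 had 5 of 8 in EAKO and 0 of 3 in Flox, Agps, an enzyme of ether lipid synthesis, 4 of 11 and 0 of 7, and Ano7 4 of 4 with no distal Flox peak. The 9 of Rbfox3 stood at percentiles 0.978 to 65.8, the 5 of Smim15 at 14.6 to 42.0, and none of those 5 overlapped an H3K27ac or Ets1 peak. Among lone distal peaks in H3K27ac, Sipa1l1 (6), Csgalnact1, Ptprm, the BMP signal transducer Smad1 and Zmiz1 (5 each) led in Flox, with 0, 1, 0, 0 and 2 in EAKO. Celf2 led in EAKO with 4, against 0 in Flox, followed by Clasp1, Col5a1, Dip2b and Hs6st1 with 3, against 1, 3, 1 and 1.

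The strongest single distal peaks in Flox alone lay near Hic2, a transcriptional repressor (percentile 100, chr16:17222214-17222496), Trim43c (94.5), Rnf219 (93.5), Ezh2, the histone H3K27 methyltransferase (92.3, chr6:47659122-47659960), Tcp10c (83.7), Sec14l5 (79.1), Snai1, a factor of epithelial-mesenchymal transition (75.4), and Tgfbr2, a TGFβ receptor (75, in an exon). These are the nearest protein-coding genes, and the peak given to Rnf219 lay 193 kb from its TSS, over the noncoding transcript D130009I18Rik. Those given to Trim43c and Snai1, 19.7 and 27.7 kb off, also lay over noncoding transcripts, whose promoters count as distal here. The peaks near Hic2, Ezh2 and Snai1 lay in a Flox and not in an EAKO H3K27ac peak, and that near Tcp10c in both. The peak near Hic2 was 283 bp wide with a fold enrichment of 26.5 and lay in the Ets1 peaks of RT, CS and beige cells. So did the peak near Tcp10c, while that near Rnf219 lay in CS and beige Ets1 peaks and that near Ezh2 in a beige one. In EAKO alone the strongest were near Gpr37l1 (77.6), Scaf8 (77.4), Ptprm, a receptor tyrosine phosphatase (69.9), Sfi1 (68.4), Tbx18, a T-box factor (67.0), Fpgs (66.7), Thnsl2 (66) and Ror1, a Wnt receptor (65.8). The peak near Thnsl2 lay in a Flox H3K27ac peak, and no other of these 8 lay in one. The peak near Scaf8 lay in an RT Ets1 peak and that near Sfi1 in RT and CS Ets1 peaks. The peak given to Ror1 lay in its intron, 178 kb from the TSS. No regions of excess signal were removed from the lists here, and whether the peaks named in this paragraph lie in such regions was not tested.

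Over all strengths, H3K27ac and the beige and CS Ets1 peaks lay at fewer lone peaks than shared ones. H3K27ac of either genotype lay at 87.3% of shared Flox promoter peaks (86.8 to 87.8), 44.2% of promoter peaks in Flox alone (41.9 to 46.5) and 33.0% of those in EAKO alone (29.4 to 36.7). At distal peaks the shares were 61.3%, 26.6% and 22.6%. Beige Ets1 peaks lay at 57.2% of shared Flox promoter peaks, 10.7% of those in Flox alone and 3.79% of those in EAKO alone, and CS Ets1 peaks at 35.2%, 7.72% and 2.21%. Since lone peaks are weak and weak peaks are less often marked, the shares were also taken within the 4 bins of strength. In bin 3, the one below the strongest, 119 promoter peaks in Flox alone overlapped Flox H3K27ac in 63.9% and EAKO H3K27ac in 30.3%, beside 79.1% and 71.5% for the 3856 shared ones. Of these 119 peaks 41 (34.5%) lay in H3K27ac of Flox and not EAKO and 1 (0.840%) in the reverse. Shared peaks of that bin leaned the same way, with 459 (11.9%) and 165 (4.28%) of 3856. The study's reporting summary lists more H3K27ac peaks for Flox than for EAKO. Beige Ets1 lay at 37.0% of the 119 (28.8 to 45.9) and 35.6% of the shared peaks in that bin, and CS Ets1 at 23.5% (16.8 to 31.9) and 15% (13.9 to 16.1). In bin 2 CS Ets1 lay at 10.9% of lone (8.42 to 14.0) and 8.28% of shared Flox promoter peaks, and in bin 1 at 4.16% and 3.97%. Within these bins, Ets1 peaks were thus about as frequent at lone as at shared Flox promoter peaks, with CS Ets1 more frequent in bin 3. At distal Flox peaks and EAKO promoters beige Ets1 was less frequent at lone peaks also within bins. At distal Flox peaks it lay at 3.15% of lone and 5.41% of shared peaks in bin 1. In bin 2 it lay at 6.96% and 10.1%, and in bin 3 at 9.75% and 22.8%. At EAKO promoters it lay at 3.00% and 9.34% in bin 1, and at 7.29% and 20.8% in bin 2. RT Ets1 peaks were few, at 0.397% of distal peaks in EAKO alone and 0.376% of shared EAKO ones. At distal peaks of bin 3, 38.1% (32.2 to 44.5) of those in Flox alone and 17.0% (11.1 to 25) of those in EAKO alone were acetylated, beside 65.9% and 66.3% of shared ones. The 4 bins do not fully match strength, since lone peaks lie toward the weaker side of a bin. With 10 bins, 76 of 1391 Flox promoter peaks were alone in bin 6 and 29 of 1659 in bin 7. Distal Flox peaks had 194 of 7507 and 38 of 7238. A difference in strength therefore remains in the shares by bin.

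**Figure D4:**
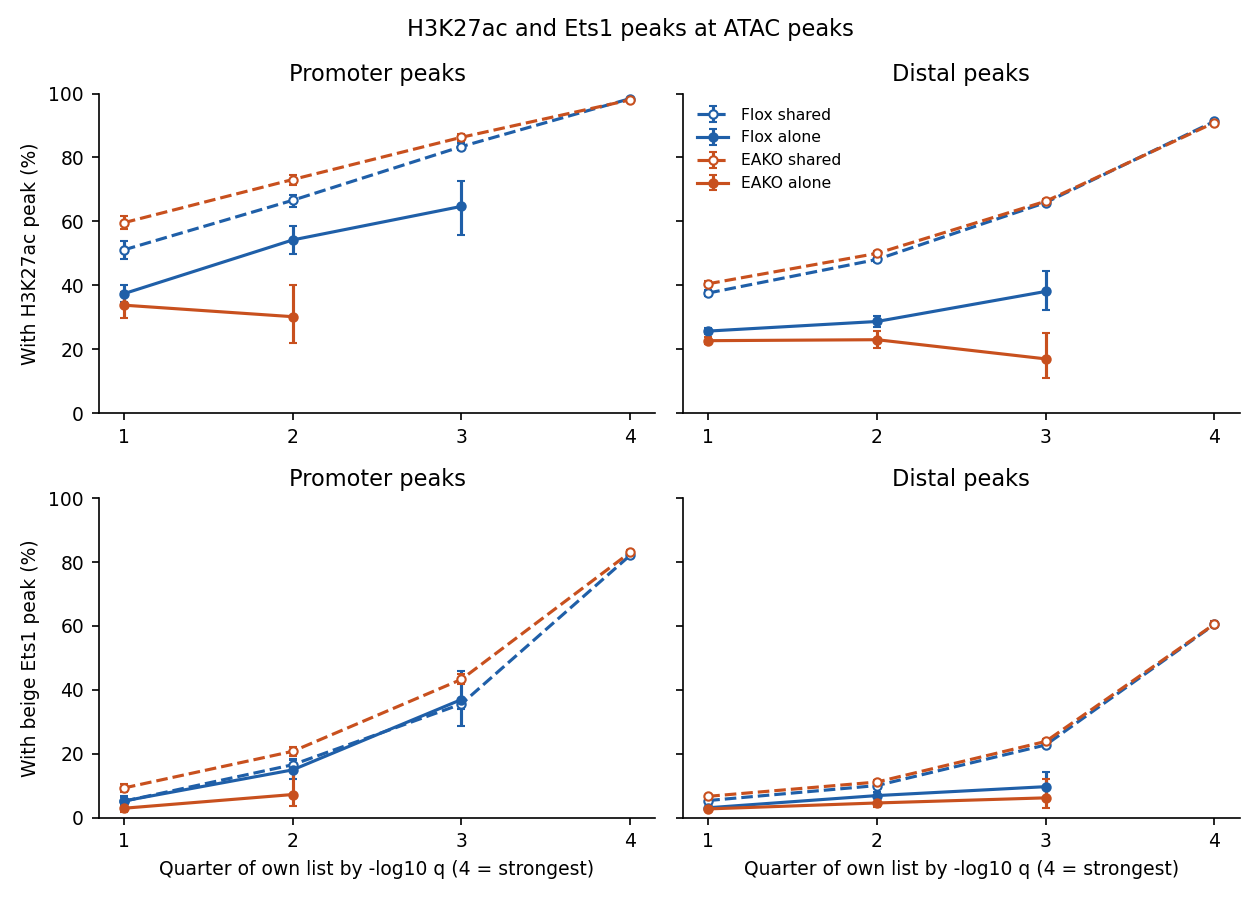
Share of ATAC peaks (%) that overlap an H3K27ac peak of Flox or EAKO (upper row) or a beige Ets1 peak (lower row), by bin of the own list by −log10 q (horizontal axis, 4 the strongest), for promoter and distal peaks, shared (open points, dashed) or alone (filled points), with Wilson 95% intervals and only for points of at least 20 peaks. In bin 3 the distal peaks in Flox alone stand at 38.1% for H3K27ac and those in EAKO alone at 17.0%, both under the shared peaks at 65.9% and 66.3%.

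Letters of 10 binding motifs were counted in the summit windows, on both strands, beside the same letters read backwards and windows moved by 1 kb. The ETS letters lay in 4.37% of shared Flox promoter windows (4.08 to 4.69), in 0.732% of those in Flox alone (0.429 to 1.25) and in 0.631% of those in EAKO alone (0.246 to 1.61). Read backwards they lay in 0.737% of the shared windows, and in moved windows in 0.354%. The ETS share went with strength over all Flox promoter peaks, at 0.460%, 0.457%, 1.46% and 6.98% from the weakest to the strongest bin. Within bin 1 they lay in 0.606% of lone and 0.324% of shared windows, within bin 3 in 1.68% of 119 and 1.45% of 3856, and within bin 4 in 2 of 14 lone windows beside 6.97% of shared ones. Lone peaks that lay in an Ets1 peak and held the ETS letters numbered 8 of 882 in Flox and 0 of 320 in EAKO, beside 765 shared Flox and 700 shared EAKO peaks of that kind. Shared Flox peaks in an Ets1 peak, with or without the letters, numbered 10532 at promoters and 14380 at distal sites. Strength was not matched in these counts.

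AP-1 letters lay in 33.9% of shared distal Flox windows, 26.4% of those in Flox alone and 25.4% of those in EAKO alone, against 5.83%, 5.57% and 5.54% in moved windows. Within bins of strength the Flox shares lay closer, at 26.6% of shared and 24.1% of lone windows in bin 1, 31.9% and 34.0% in bin 2, and 34.3% and 33.1% in bin 3. At promoters in EAKO alone they lay in 17.8% (15 to 21), beside 11.1% in Flox alone (9.72 to 12.6) and 9.42% of shared Flox windows. C/EBP letters, TTNNGCAA, lay in 11.8% of shared distal Flox windows, 11.8% of those in Flox alone (11.2 to 12.4) and 9.09% of those in EAKO alone (8.43 to 9.79). PU.1 letters, read by the ETS factor of macrophages and B cells, lay in 1.61%, 2.00% (1.77 to 2.26) and 1.40% (1.14 to 1.70). In moved windows C/EBP letters lay in 8.08%, 8.46% and 8.17%, and PU.1 letters in 1.27%, 1.26% and 1.44%. Many of these matches are therefore at the level of moved windows. CTCF letters, AGGGGGCGC, lay in 0.958%, 0.486% and 0.735%. NF1 letters (CTTGGCA) lay in 5.51%, 5.91% and 4.93%, EBF letters (TCCCNNGGG) in 4.58%, 3.97% and 3.94%, and RUNX letters (TGTGGTTT) in 3.63%, 3.48% and 2.81%. PPAR/RXR letters (GGTCANAGG) lay in 1.21%, 1.34% and 1.28% and glucocorticoid receptor letters (ACANNNTGT) in 6.80%, 6.70% and 6.98%, close to their moved windows at 1.22% and 6.47% for the shared peaks. Shared distal peaks with PU.1 letters differed by a median of -3.21 points between EAKO and Flox, those with C/EBP letters by -2.14, with RUNX letters by -2.07, with ETS letters by -1.33 and with CTCF letters by 0.528, where distal peaks without the PU.1 letters were at -1.24.

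Most genes of the pathways that the study followed had open promoters in both genotypes. A set of 10 autophagy genes and 6 mitochondrial genes was taken from the study's text and primer list, which name further genes, Cox8b among them. Promoters of all 16 were open in both. Because the study chose them on libraries of this series, their counts are not independent evidence. Atg5 of the conjugation machinery stood at 98.6 in Flox and 97.8 in EAKO, the lipid scramblase Atg9a at 98.1 and 98.4, the initiating kinase Ulk1 at 93.5 and 92.6 through 2 different peaks, and the protease Atg4d at 97.5 and 98.6. Atg16l2 was at 97.4 and 86.5, Atg101 at 97.2 and 88.9, Atg3 at 96.7 and 91.9, Atg2a at 97.7 and 98.0, Atg10 at 94.9 and 92.7, and Atg4b at 60.0 and 57.1. Tfam, which packages mitochondrial DNA, stood at 97.9 and 84.4, the largest difference of the 16 genes. Cox8a of complex IV was at 99.6 and 98.9, Ndufv2 of complex I at 99.2 and 98.8, Sdhb of complex II at 89.7 and 91.2, Uqcr10 of complex III at 99 and 99.5, and Atp5a1 of complex V at 94.8 and 90.7.

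Wider lists were also open at most promoters. Over all genes 65.2% were open in both, and the counts of each list here and below stand beside that share. Core autophagy had 41 of 42 members open in both and oxidative phosphorylation 74 of 76, with Cox4i1 in Flox alone and Cox8b, a muscle and brown fat form of a complex IV subunit, in neither. Mitochondrial biogenesis and dynamics had 27 of 27, the mitochondrial ribosome 78 of 78 and the cytosolic ribosome 75 of 75. The median EAKO minus Flox difference was -0.274 points for core autophagy, -0.314 for oxidative phosphorylation, -1.87 for mitochondrial biogenesis and dynamics, -1.55 for the mitochondrial ribosome and -0.398 for the cytosolic ribosome, beside -1.20 over all genes. Within the biogenesis and dynamics list the fusion gene Mfn2 went from 72.3 to 49.6 and the mitophagy receptor Bnip3 from 73.0 to 52.6. Mrps10 of the mitochondrial ribosome (79.8 to 53.5) was its 1 member lower by 25 points or more. Distal peaks of core autophagy were alone in 26 of 158 in Flox (16.5%) and 21 of 155 in EAKO (13.5%). Atg7, which activates the conjugation systems, had 4 of 33 and 6 of 36 alone, and Uvrag 5 of 24 and 3 of 22.

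Thermogenic effectors had 22 of 30 promoters open in both, beside 65.2% of all genes. Ryr2 (23.6) and Tbx1 (27.1) were in Flox alone, Ckmt1 in EAKO alone and 5 in neither, Ucp1 among them. Ucp1 encodes the uncoupling protein that makes heat, and its 1 distal peak, 11.7 kb upstream, stood at 59.5 in Flox and 34.8 in EAKO and was acetylated. The creatine synthesis gene Gatm went from 62.8 to 26.4, the creatine kinase Ckb from 70.4 to 47.7 and the potassium channel Kcnk3 from 48.0 to 12.7, the last through different peaks. Distal peaks of the thermogenic effectors were alone in 16 of 65 in EAKO (24.6%, all genes 10.9%) and 10 of 59 in Flox (16.9%, all genes 17.8%). With equal numbers of best peaks they were alone in 17 of 65 (26.2%) and 8 of 56 (14.3%), beside 13.4% of all genes' peaks in each, and skeletal muscle markers then had a higher EAKO share, 4 of 12 (33.3%). Alpl, the phosphatase of creatine cycling, had 3 distal EAKO peaks and 1 Flox peak alone, Dio2, which activates thyroid hormone, 2 and 1, Slc25a20, the carnitine carrier, 2 and 0, and Tmem26 2 and 0.

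Regulators of beige and adipocyte fate were open at every promoter in both libraries, 26 of 26 beige fate regulators and 27 of 27 adipogenic factors. Pparg stood at 51.5 in Flox and 38.8 in EAKO, Ppargc1a, the coactivator of mitochondrial genes, at 83.3 and 81.5, and Prdm16, the beige fate determinant, at 60.4 and 38.1 through different peaks. Cebpb, an early adipogenic factor, went from 49.3 to 67.3 and Ebf3 from 49.7 to 18.7. Distal peaks of adipogenic factors were alone in 57 of 279 in Flox (20.4%) and 15 of 237 in EAKO (6.33%), beside 17.8% and 10.9% over all genes. With equal numbers the shares were 37 of 253 (14.6%) and 20 of 237 (8.44%), where all genes stood at 13.4% in each. Nfib, a nuclear factor I member, had 10 of 31 and 4 of 25 alone, Ebf1 9 of 36 and 2 of 30, Tcf7l2, an effector of Wnt signalling, 5 of 33 and 3 of 31, and Ebf2 4 of 22 and 0 of 18. Beige fate regulators, which share 7 members with that list, Pparg, Ebf1 and Ebf2 among them, had 48 of 243 (19.8%) and 20 of 218 (9.17%), or 15.1% and 13.3% with equal numbers. Of the distal peaks of Pparg 2 of 9 were alone in Flox and 0 of 7 in EAKO, and of those of Prdm16 3 of 11 and 2 of 10.

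Histone acetyltransferases and deacetylases, the enzymes that write and remove acetylation, had all 25 promoters open in both. Their distal peaks were alone in 32 of 146 in Flox (21.9%) and 5 of 118 in EAKO (4.24%), beside 17.8% and 10.9% of all genes' peaks. With equal numbers the shares were 16.7% and 11.9%, where all genes stood at 13.4% in each. Crebbp, the CREB-binding acetyltransferase, had 6 of 13 distal Flox peaks and 0 of 7 EAKO peaks alone, and its promoter went from 82.5 to 49.5. Its relative Ep300 stood at 90.0 with a difference of -0.592. Hdac4 had 7 of 31 and 3 of 27 distal peaks alone, Ncoa2 4 of 12 and 1 of 9, and Hdac7 3 of 8 and 0 of 5, of which all 3 were acetylated. Adrenergic signalling, which also holds Crebbp, had 25 of 25 promoters open in both and 40 of 188 (21.3%) and 18 of 164 (11%) distal peaks alone. The phosphodiesterase Pde4d had 10 of 58 and 4 of 50, and Adrb3, the adrenergic receptor of fat, stood at 59.0 with a difference of -1.06.

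Among lipid storage and lipolysis genes 35 of 39 promoters were open in both. Mgll, the monoglyceride lipase, went from 54.6 to 5.84 and Agpat2 of triglyceride synthesis from 68.0 to 45.1, while Plin5, a lipid droplet coat protein, went from 7.10 to 28.6. Distal peaks were alone in 20 of 130 in Flox (15.4%) and 22 of 129 in EAKO (17.1%). Elovl6, a fatty acid elongase, had 3 of 9 and 2 of 8 alone, and Fabp4 2 of 2 in Flox with none in EAKO. Of adipokines and insulin response genes 18 of 23 were open in both and Irs2 (82.0) and Igf1r (42.0), the receptor of insulin-like growth factor 1, in Flox alone. Pik3r1, the regulatory subunit of PI3-kinase, went from 89.0 to 62.8 with 4 of 16 and 0 of 13 distal peaks alone. The list had 27 of 170 (15.9%) and 9 of 154 (5.84%) distal peaks alone, or 11% and 9.09% with equal numbers.

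The ETS factor family, to which Ets1 belongs, had 20 of 26 promoters open in both, beside 65.2% of all genes. Spdef (2.39) and Spi1, which encodes PU.1 (11.4), were in Flox alone. Gabpa, a widely expressed member, stood at 97.5 with a difference of 1.35 and Etv4 at 97.7 with -0.879, while Erg, a factor of endothelium, went from 51.0 to 5.88. Distal peaks were alone in 27 of 158 (17.1%) and 15 of 150 (10.0%), and Ets1 had 3 of 23 on either side. Elk3 had 5 of 15 and 2 of 12, with 3 of the 5 acetylated.

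**Figure D5:**
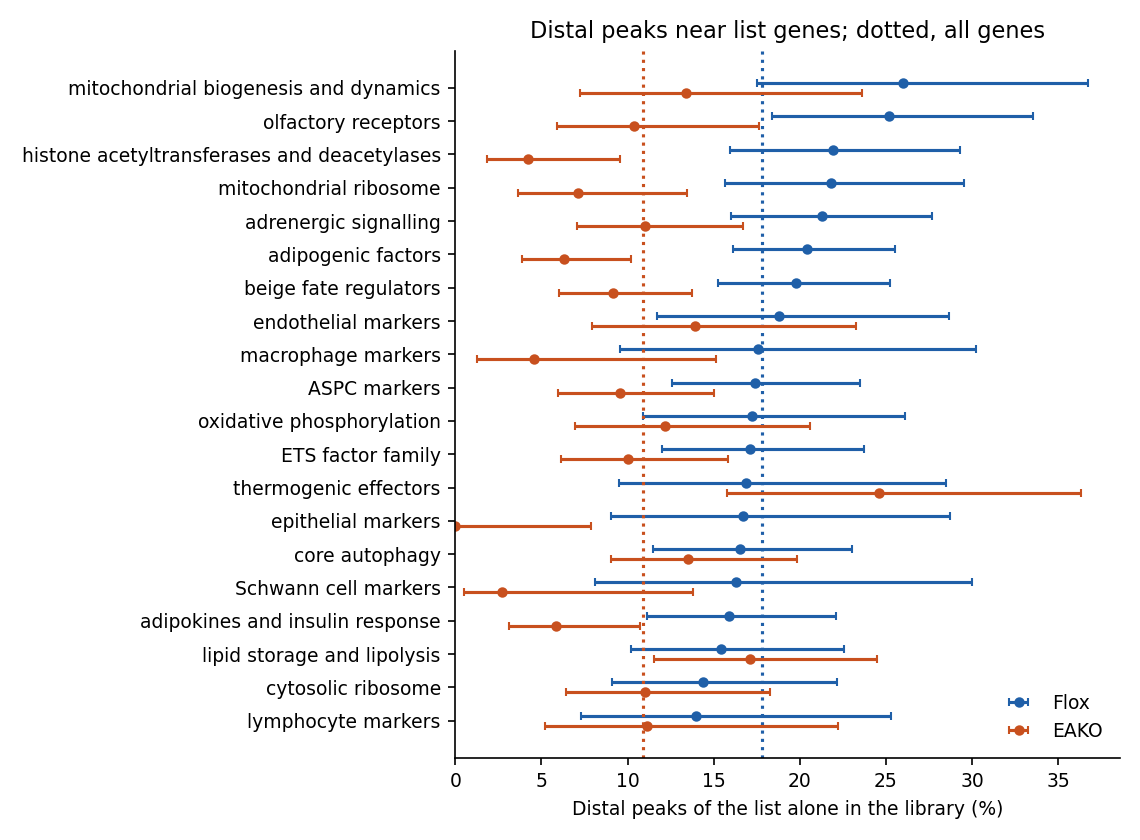
Share of distal peaks near the genes of a list that were alone in Flox or in EAKO (%, horizontal axis, Wilson 95% intervals), for lists with at least 40 distal Flox peaks, in the order of the Flox share. Dotted lines give all genes at 17.8% in Flox and 10.9% in EAKO. Thermogenic effectors have the highest EAKO share, 24.6%, and the acetyltransferases and deacetylases one of the lowest, 4.24%.

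Over the 638 members of all lists but the olfactory receptors, 15 promoters were in Flox alone (2.35%) and 7 in EAKO alone (1.10%), near the 2.54% and 0.784% of all genes. In Flox alone were the endothelial genes Cdh5 (14.2) and Sox18 (36.1), the ASPC genes Fmo2 (40.7) and Ly6a (60.5, whose peak met an EAKO peak), Cd28 of T cells (3.48), Foxd3 (25.3) and Ncmap (6.40) of the Schwann lineage and Cdh1, the epithelial cadherin (55.2). In EAKO alone were Pi16 of ASPC, Cx3cr1 of macrophages (33.6), Ikzf1 and Klrb1c of lymphocytes, Sox10 of Schwann cells and Ttn of muscle. Endothelial promoters open in both were lower in EAKO by a median of 10.8 points, led by Prox1 of lymphatic endothelium (76.1 to 28.2) and Flt4 (65.6 to 39.7), with Tek at 84.7 and 82.2. Distal peaks of endothelial genes were alone in 18.8% and 13.9%, of macrophage genes in 17.6% and 4.55%, of lymphocyte genes in 14.0% and 11.1%, and of ASPC genes in 17.4% and 9.58%, with Egfr (6 of 30 and 2 of 25) and Col3a1 (5 of 18 and 1 of 13) foremost in the last. Mural genes had 6.25% and 9.09%, mesothelial 21.7% and 14.3%, Schwann 16.3% and 2.70%, muscle 23.1% and 16.7%, and epithelial genes 16.7% and 0 of 45. Olfactory receptors, which fat does not use, had 18 of 1092 promoters open in both, 4 in Flox alone and 2 in EAKO alone, and 25.2% and 10.4% of their distal peaks alone.

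Peaks alone were spread over all chromosomes. The share in Flox alone ran from 14.5% on chromosome 7 to 17.8% on chromosomes 12 and 14 among the autosomes, with 22.3% (20.4 to 24.3) on the X, and that in EAKO alone from 7.98% on chromosome 13 to 9.86% on chromosome 6, with 8.83% on the X. The Y held 20 Flox peaks and 14 EAKO peaks, of which 8 and 2 were alone. In windows of 1 Mb with at least 20 peaks the median share was 16.0% in Flox and 8.50% in EAKO. The highest Flox window, from 61000001 to 62000000 on chromosome 1, had 12 of 26 peaks alone (46.2%), and the highest EAKO window, from 103000001 to 104000000 on the X, had 9 of 30 (30.0%).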

How the data were processed

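ATAC was run on mature iWAT adipocytes of Flox and EAKO mice, 1 library per group, and groups were taken from the sample titles. The genotype field of the Flox ATAC sample reads 'wild type (Knockout)', and the sample was placed in Flox by its title. The study's reporting summary mentions biological replicates for ATAC, while its supplement gives 1 per group for these libraries. Per the study's methods, the authors removed adaptors (trimmomatic), mapped the reads to mm10 (BWA) and ran MACS2 on each library, keeping peaks with a q-value below 0.05. SAMtools, deepTools and DESeq2 appear in the submitters' processing notes too, while the tool versions in the study's reporting summary are not repeated and a control library and removal of regions of excess signal are not given in the sources used here. Each deposited peak carries a score (10 times −log10 q), a linear fold enrichment ratio over the local background of its library, −log10 p-values and q-values, and the summit offset in bp. The lists hold no read counts. The study's reporting summary gives more reads for the Flox than for the EAKO library, which runs the same way as the larger Flox list, and its totals are not used here. Depth limits the weakest peaks most. The number of peaks in a list moves with depth, and so does the share found in 1 list alone.

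Overlaps of at least 1 bp were computed with numpy 2.4.6 and pandas 2.3.3 and checked against bedtools 2.31.1 and on simulated lists. GENCODE M21 gave 93513 TSS for 21938 protein-coding genes, with a promoter of 1 kb on either side, and genes that share a promoter share its peak. Each peak of a list was counted once, at its given summit, and no peaks were merged. Shared peaks were paired with the partner of largest overlap. Named genes were the 8 strongest lone promoter and distal peaks of each library, the 5 genes with most lone distal peaks, the 5 largest promoter differences each way, list members with a lone promoter peak, up to 4 per list with most lone distal peaks, and genes the study names. A gene that this rule names is not reported here. Some other list members with a difference of 20 points or more, the lone promoter peaks that meet no partner, the sequences of Irs2, Cox4i1 and Ets1, Cebpb, Gabpa, Etv4, Ep300, Adrb3, Cebpa, Tek and the adipocyte markers were chosen after their values were seen. The members and the 25 gene lists were chosen with earlier results of these data known. Alternatives were equal numbers of best peaks, −log10 q of at least 3 or 5, other promoter, distal and motif windows, and fold enrichment in place of −log10 q. No test was made, since each group had 1 library.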

Additional observations from a re-analysis of the deposited data

How the results depend on the processing

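Of 76 values under alternatives for 24 results, 47 stayed within 1.5 times (counts), within the counting interval (shares) or within 1 SD of the peaks' differences (median differences) of the value given, and 29 moved. The lean of distal peaks near genes to Flox (10321 against 5838) was lost with equal numbers (7162 against 7202). With −log10 q of at least 5 in both lists, EAKO peaks alone numbered 4904. With such peaks set against all peaks of the other list, peaks alone numbered 8206 in Flox and 3187 in EAKO, promoters in EAKO alone 71, and distal peaks near genes 5542 and 2478. Under that rule H3K27ac lay at 50.7% of promoter and 29.0% of distal peaks in Flox alone, and beige Ets1 at 14.6% and 5.45% in Flox alone and 5.6% and 3.71% in EAKO alone. With equal numbers of best peaks H3K27ac stood at 47.8% (promoter) and 27.9% (distal) in Flox alone and 24.6% (distal) in EAKO alone, beige Ets1 at 13.0% and 4.99% in Flox alone, and distal AP-1 letters at 29.7% in Flox alone. In windows of 100 bp ETS letters lay in 2.62% of shared promoter peaks and 0.394% of those in Flox alone, and AP-1 letters in 22.4% of shared distal peaks, 17.3% in Flox alone and 16.4% in EAKO alone. Windows moved by 1 kb gave 0.354% and 0.282% for ETS and 5.83%, 5.57% and 5.54% for AP-1. With promoters of 3 kb, 4 list members were in EAKO alone. Without peaks above 57.0% GC, an alternative chosen after seeing the data, the median promoter difference went from -1.64 to -0.242 points. Shorter windows hold fewer letters by construction, and the cause of the other moves was not tested. No paired analysis was possible because each group has 1 library.

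Peak calls depend on depth, which by the study's account was higher in Flox and whose part in the differences was not tested. Peaks alone sit mostly near the calling threshold, so a peak missing from 1 list is not evidence of closed chromatin there. The intervals cover counting error only. Genotype cannot be told apart from the animal, the digestion, the cell makeup of the floating fraction or the library.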
